A study of Mus musculus with 4 samples.

Results

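Genes that bind retinol and retinoic acid, make retinoic acid, saturate retinol or break retinoic acid down were examined in the white adipose tissue (WAT) of *FSP27*-deficient mice. The list holds 9 genes chosen for these roles: *Aldh1a1*, *Aldh1a2*, *Aldh1a7*, *Retsat*, *Stra6*, *Crabp1*, *Crabp2*, *Cyp26b1* and *Dhrs3*. The platform's annotation pairs 8 of them with 9 of the 22690 probe sets on the array, *Retsat* with 2 and the others with 1 each. No probe set is named *Cyp26b1*, so that its expression was not analysed here. RNA came from gonadal WAT of male C57BL/6J mice, 3 months old, of an *FSP27* (*Cidec*) knockout and of wild-type mice. The methods describe a chow diet for the knockout mice. RNA from 5 mice of each genotype was pooled (45 μg in total), and each pool was hybridised in duplicate, which gives 2 FSP27-deficient and 2 wild-type Affymetrix arrays. P-values therefore cover the scatter of repeat hybridisations of 1 pool and say nothing of mouse-to-mouse variation. With 2 against 2 arrays, the smallest two-sided p that an exact permutation test can reach is 0.333.

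Retinoids are vitamin A and its derivatives. Retinol travels in blood on a carrier protein and enters cells through membrane receptors, and inside the cell it is stored as retinyl ester or oxidised reversibly to retinaldehyde. Retinaldehyde dehydrogenases turn retinaldehyde irreversibly into retinoic acid, which binds the nuclear receptors RAR, partners of RXR, and is degraded by the cytochromes of the CYP26 family. White fat stores retinoids in its lipid droplets, and retinoids act on adipocyte differentiation and on the thermogenic genes of brown fat.

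The promoters of the genes that changed are shown first, because the pair *Aldh1a1* and *Aldh1a7* moved in opposite directions although their start sites look alike. RefSeq windows of 300 bases, from 250 before to 50 after an annotated start site (build GRCm38.p6), matched 8 of the 9 genes, with 14 windows, since some genes have several start sites. *Aldh1a1* has 2 such windows, and the second, which resembles that of *Aldh1a7*, is printed. All sequences are written 5′ to 3′ on the strand of the gene. Capitals in the *Aldh1a* windows mark the octamer ATGCAAAT and the CCAAT box, and capitals in the *Retsat* window mark TATAAA and, read on the other strand, the receptor element AGTTCA.
Aldh1a1, chr19:20601718-20602017, plus strand: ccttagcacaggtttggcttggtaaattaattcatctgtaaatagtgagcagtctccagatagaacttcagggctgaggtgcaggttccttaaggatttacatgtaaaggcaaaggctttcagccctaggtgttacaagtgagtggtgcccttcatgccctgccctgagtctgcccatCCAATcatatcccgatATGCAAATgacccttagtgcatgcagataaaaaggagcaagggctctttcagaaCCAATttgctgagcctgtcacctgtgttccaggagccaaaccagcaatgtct
Aldh1a7, chr19:20727507-20727806, minus strand: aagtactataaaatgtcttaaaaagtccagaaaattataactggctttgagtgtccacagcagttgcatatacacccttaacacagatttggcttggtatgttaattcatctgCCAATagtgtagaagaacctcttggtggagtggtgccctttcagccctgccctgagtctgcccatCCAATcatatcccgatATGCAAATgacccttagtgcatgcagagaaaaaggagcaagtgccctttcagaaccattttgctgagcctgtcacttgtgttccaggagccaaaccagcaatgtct
Aldh1a2, chr9:71215539-71215838, plus strand: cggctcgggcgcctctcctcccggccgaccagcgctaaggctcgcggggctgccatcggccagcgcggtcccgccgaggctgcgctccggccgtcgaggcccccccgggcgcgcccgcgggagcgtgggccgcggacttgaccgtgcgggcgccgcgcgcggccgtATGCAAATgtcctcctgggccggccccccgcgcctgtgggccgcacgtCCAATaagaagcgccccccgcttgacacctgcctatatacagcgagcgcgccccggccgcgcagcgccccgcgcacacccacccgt
Retsat, chr6:72598352-72598651, plus strand: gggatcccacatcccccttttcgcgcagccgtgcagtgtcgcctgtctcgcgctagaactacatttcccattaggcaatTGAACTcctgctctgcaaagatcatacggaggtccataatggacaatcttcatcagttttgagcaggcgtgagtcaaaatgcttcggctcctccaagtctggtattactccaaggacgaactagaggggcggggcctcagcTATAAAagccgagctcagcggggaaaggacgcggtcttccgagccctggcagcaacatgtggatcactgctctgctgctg
Over the last 150 bases of the windows, compared without gaps, *Aldh1a1* and *Aldh1a7* shared 142 bases (94.7%), with an unbroken run of 65 identical bases that starts 94 bases before either start site. Within that run lie a CCAAT box 72 bases and the octamer 56 bases before the start site, at the same place in both genes. The other CCAAT differs, and lies 2 bases before the start site in *Aldh1a1* and 137 bases before it in *Aldh1a7*. The *Aldh1a2* window holds the octamer too, 84 bases before the start site. Among 32851 promoter windows of the same length in the RefSeq table, 1.74% hold the octamer and 37.4% hold CCAAT on either strand. The elements AGGTCA and AGTTCA, which retinoic acid and other nuclear receptors bind in pairs, were searched on both strands. AGTTCA lies 171 bases before the *Retsat* start site and in 1 *Stra6* window (14% of all windows hold it), and AGGTCA lies in no window of these genes (16.3% of all windows hold it). A direct repeat of these elements with 1 to 5 bases between them was found in none of the 14 windows, against 0.201% of all windows. TATAAA begins 30 bases before the *Retsat* start site (13.6% of all windows hold it), and was also found, far from the start site, in the *Aldh1a7* and *Cyp26b1* windows. The motifs were chosen after the windows were seen, and a match is a description of the letters and not a site of binding.

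The values are linear intensities, the signals that Affymetrix GCOS software computes for a probe set. The median signal was 181 and 165 in FSP27-deficient WAT and 193 and 172 in wild-type WAT, and the lower quartile of an array lay between 52.7 and 64.1. *Cidec*, which encodes FSP27, gave 8564 and 8949 in FSP27-deficient WAT, against 20491 and 18255 in wild-type WAT. Where its probe set lies relative to the deletion was not examined, so that this is no full check of the genotype. Each gene was read from its probe set with the highest mean signal, and the 8523 genes whose signal averaged 100 or more were tested on log2(signal + 16) with limma, with Benjamini-Hochberg adjustment over all of them. At an adjusted p under 0.05, limma called 493 genes higher (5.78%) and 555 genes lower (6.51%) in FSP27-deficient WAT, 12.3% in either direction. Of the retinoid handling genes 5 passed the filter on low signals, *Aldh1a1*, *Aldh1a2*, *Aldh1a7*, *Retsat* and *Dhrs3*, and of these 2 were called higher and 2 lower. Their median log2 fold change was -0.25, against -0.08 for all genes tested. The arrays of the genotypes did not overlap in any of the 5, with 2 higher (22.7% of all genes tested) and 3 lower (31.4%), against 54.1% of all genes in either direction.

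**Figure D1:**
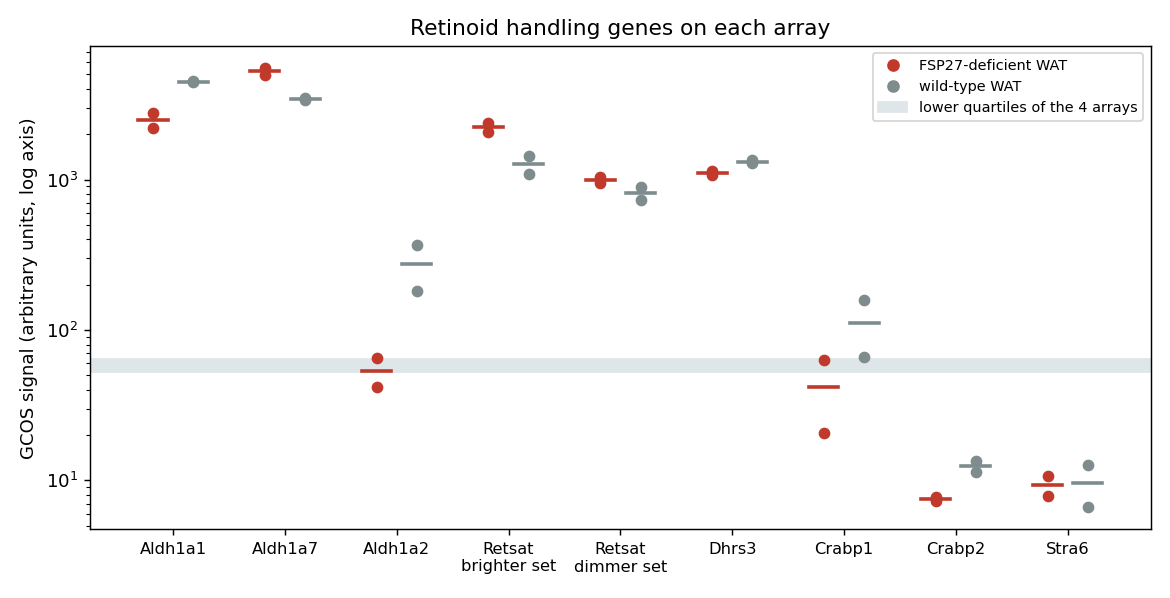
GCOS signal (arbitrary units, log axis) of the 9 probe sets on each array, with 1 dot per array and short lines for the genotype means (red, FSP27-deficient WAT, and grey, wild-type WAT), and a band over the lower quartiles of the 4 arrays. The *Aldh1a1* dots of FSP27-deficient WAT lie below and those of *Aldh1a7* above the wild-type dots, and all dots of *Crabp2* and *Stra6* lie under the band.

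The enzymes of retinoic acid synthesis and their relatives did not move together. *Aldh1a1* encodes retinaldehyde dehydrogenase 1, which makes retinoic acid and is abundant in white fat of mice. Its signal was 2216 and 2757 in FSP27-deficient WAT, against 4424 and 4496 in wild-type WAT. Both FSP27-deficient values lay below both wild-type values, and the wild-type duplicates were close together. A fold is given as the ratio of mean signals, and a log2 fold change as the difference of mean log2(signal + 16), so that the measures differ for dim or scattered genes. The mean was 1.79-fold lower (log2 fold change -0.85 ± 0.18, SE, limma adjusted p = 0.0092).

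*Aldh1a7* encodes a closely related rodent aldehyde dehydrogenase whose product has little activity toward retinaldehyde. It gave 4956 and 5520 in FSP27-deficient WAT, against 3354 and 3493 in wild-type WAT. Both FSP27-deficient values were the higher ones, the opposite of *Aldh1a1*. The mean was 1.53-fold higher (log2 fold change 0.61 ± 0.17, SE, limma adjusted p = 0.032). The 95% interval of the log2 fold change was 0.25 to 0.97 for *Aldh1a7* and -1.24 to -0.46 for *Aldh1a1*, so that the intervals lie on either side of 0. The genes are near-identical paralogs, and whether either probe set also reads the transcript of the other was not tested.

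*Aldh1a2* encodes retinaldehyde dehydrogenase 2, the main source of retinoic acid in the embryo and a gene known from mesothelium. Its signal was 64.9 and 41.6 in FSP27-deficient WAT, against 366 and 182 in wild-type WAT. The groups did not overlap, but the wild-type duplicates differed widely and 1 FSP27-deficient value lay below the lower quartile of its array, so that the size of the fall is uncertain. By the ratio of mean signals it was 5.14-fold lower, and its log2 fold change, a smaller difference on the scale with 16 added, passed the test (-2.01 ± 0.58, SE, with a 95% interval of -3.26 to -0.75, limma adjusted p = 0.040), rank 66 among the lowest log2 fold changes of 8523 genes. It was the largest change among the genes of the list that were tested. The mean signal of *Aldh1a2* was 53.2 in FSP27-deficient WAT and 274 in wild-type WAT. The gene therefore passed the filter on low signals only through its wild-type arrays. Without the filter on low signals the adjusted p of *Aldh1a2* was 0.085.

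The markers of other cell types moved in different ways beside *Aldh1a2*. For comparison with the counts below, 6.51% of all genes tested were called lower and 5.78% higher. Of 8 mesothelial markers tested 4 were lower and 0 higher in FSP27-deficient WAT, with a median log2 fold change of -1.06. They include *Msln*, which encodes mesothelin (50.1 and 131 in FSP27-deficient WAT, against 409 and 443 in wild-type WAT, limma adjusted p = 0.0063), and *Upk3b*, an uroplakin gene of mesothelium (899 and 537 in FSP27-deficient WAT, against 2171 and 2408 in wild-type WAT, adjusted p = 0.00094). The summed signal of the 9 mesothelial markers with a probe set was 2463 and 1890 in FSP27-deficient WAT and 5668 and 5777 in wild-type WAT. The summed signal of 11 fibroblast and preadipocyte markers was 28342 and 32487 in FSP27-deficient WAT, against 52835 and 51092 in wild-type WAT, with 5 of 10 tested lower and 0 higher, and that of 9 macrophage markers was 5491 and 6772 in FSP27-deficient WAT, against 15377 and 13892 in wild-type WAT, with 5 of 8 tested lower and 0 higher. Of 8 endothelial markers tested 1 was lower and 0 higher, with a median log2 fold change of -0.41 and a sum of 5428 and 6417 in FSP27-deficient WAT, against 6780 and 8000 in wild-type WAT. No lymphocyte marker passed the filter on low signals, and the sum of 7 such markers was 750 and 414 in FSP27-deficient WAT, against 327 and 258 in wild-type WAT. Of 7 adipocyte markers tested only the leptin gene *Lep* was called, lower, and the median log2 fold change was 0.22. *Slc2a4*, which was higher, came near the threshold (log2 fold change 0.60, limma adjusted p = 0.056). The sum of the 7 markers was 171519 and 185172 in FSP27-deficient WAT, against 142235 and 162920 in wild-type WAT. Of 5 brown adipocyte markers tested all 5 were higher, with a summed signal over 6 markers of 20119 and 24574 in FSP27-deficient WAT, against 1279 and 978 in wild-type WAT. Most of the FSP27-deficient sum is *Cox8b*, with 13491 and 19539 in FSP27-deficient WAT, against 451 and 374 in wild-type WAT. The part of these cell types in the changes of the retinoid handling genes was not tested, and in bulk tissue fewer cells of a type and less RNA per cell cannot be told apart. Of 5 markers of epididymal epithelium, the neighbouring tissue, 2 were tested and neither passed the test (sums of 513 and 286 in FSP27-deficient WAT, against 343 and 870 in wild-type WAT). *Lcn5*, which was tested, gave 14.1 and 431 in wild-type WAT, against 80.3 and 21.3 in FSP27-deficient WAT. With such scatter a difference could not be told.

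*Retsat* encodes retinol saturase, an enzyme of the endoplasmic reticulum that reduces retinol to dihydroretinol and is induced by PPARγ during adipocyte differentiation. Its brighter probe set gave 2077 and 2380 in FSP27-deficient WAT, against 1444 and 1081 in wild-type WAT. The genotypes did not overlap. The mean was 1.77-fold higher (log2 fold change 0.82 ± 0.21, SE, limma adjusted p = 0.021).

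The dimmer *Retsat* probe set gave 948 and 1033 in FSP27-deficient WAT, against 892 and 727 in wild-type WAT. Its arrays did not overlap either, in the same direction, but the change did not pass the test (log2 fold change 0.29 ± 0.22, SE, limma adjusted p = 0.46 over all 13225 probe sets tested, of which 10.6% were called). With the mean of both probe sets the log2 fold change of *Retsat* was 0.56, with an adjusted p of 0.098.

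*Dhrs3* encodes a short-chain dehydrogenase that reduces retinaldehyde back to retinol and is induced by retinoic acid. It gave 1148 and 1066 in FSP27-deficient WAT, against 1348 and 1280 in wild-type WAT. The FSP27-deficient values were the lower ones, by a small margin that did not pass the test (log2 fold change -0.25 ± 0.19, SE, with a 95% interval of -0.67 to 0.18, limma adjusted p = 0.49).

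The binding proteins and the membrane receptor were dim. *Crabp1*, which encodes a cellular retinoic acid-binding protein, gave 63.2 and 20.8 in FSP27-deficient WAT, against 158 and 65.8 in wild-type WAT. The groups did not overlap, but the lowest wild-type value lay next to the highest FSP27-deficient value. Its mean over the 4 arrays was 77.0, under the filter, and in a fit without that filter its log2 fold change was -1.14, with a standard error of 0.71 and an adjusted p of 0.45 from limma.

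*Crabp2* encodes the relative of *Crabp1* that hands retinoic acid to its nuclear receptors. It gave 7.75 and 7.35 in FSP27-deficient WAT, against 13.5 and 11.5 in wild-type WAT. *Stra6*, which encodes the receptor that takes up retinol from its blood carrier RBP4, gave 10.6 and 7.90 in FSP27-deficient WAT, against 12.6 and 6.61 in wild-type WAT. All 4 values of either gene fell under the lower quartile of the array, and a difference between genotypes was not detectable at this signal (adjusted p = 0.84 for *Crabp2* and 0.99 for *Stra6* from limma without the filter).

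**Figure D2:**
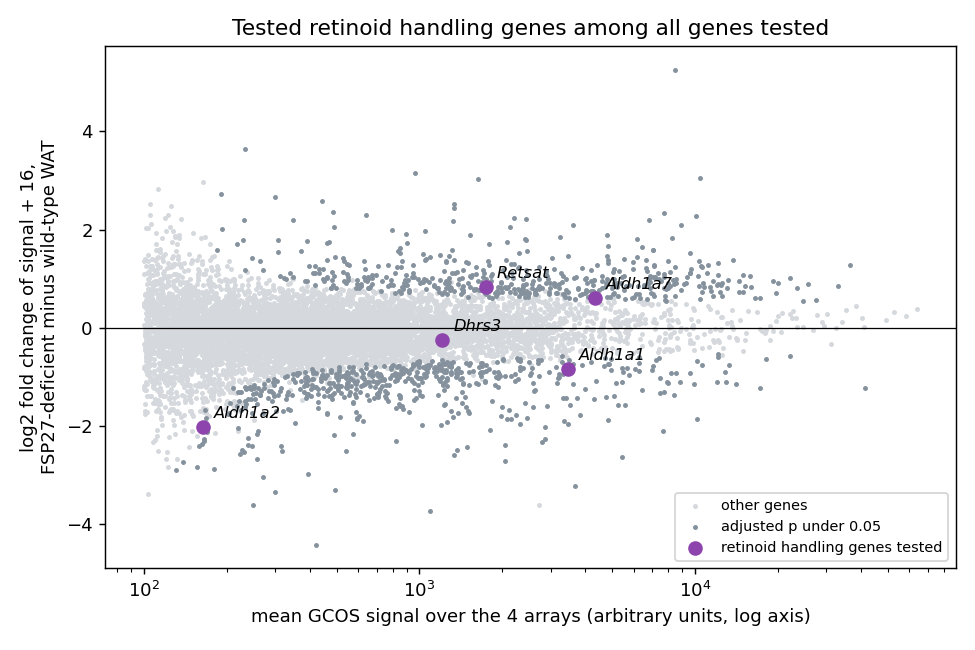
Difference in log2(signal + 16) between FSP27-deficient and wild-type WAT (positive, higher in FSP27-deficient WAT) against the mean GCOS signal over the 4 arrays (arbitrary units, log axis), with a point for each of the 8523 genes tested (dark grey, adjusted p under 0.05, and light grey, others) and larger points for the 5 retinoid handling genes tested. *Aldh1a2* lies at the dim end with a log2 fold change of -2.01, *Aldh1a1* lies below 0 and *Aldh1a7* above it.

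The calls of *Aldh1a1*, *Aldh1a2*, *Aldh1a7* and *Retsat* were each lost in at least 1 of the fits that left out a single array. Such a fit leaves 1 array of a genotype, so that the spread comes from the pair of the other genotype. Over all genes tested, too, fewer were called in both directions without either wild-type array, which was not so without an FSP27-deficient array. Whether a call lost in such a fit, here or below, rests on the array left out or on the altered spread was not tested. The log2 fold change with 1 array left out was -1.0 to -0.69 for *Aldh1a1*, -2.48 to -1.53 for *Aldh1a2*, 0.53 to 0.69 for *Aldh1a7* and 0.62 to 1.03 for *Retsat*. The sign could not reverse for these 4 genes, because their arrays did not overlap between genotypes. The *Aldh1a7* call was also lost after quantile normalization (adjusted p = 0.095) and after centring each array on its median (adjusted p = 0.068).

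Genes with array values like those of *Retsat* and *Aldh1a2*, the largest rise and the largest fall in the list, were sought by the Euclidean distance between log2 values centred on each gene's mean, over 4 arrays. Their direction was fixed by this choice, and their p-values come from the same arrays and are no separate support. Nearest to *Retsat* were *Cplx2* (distance 0.059), *Rab3a* (0.10) and *Eif3l* (0.10). Of these only *Eif3l*, a translation initiation factor subunit, passed the test (3895 and 4179 in FSP27-deficient WAT, against 2452 and 1932 in wild-type WAT, limma adjusted p = 0.0083). Nearest to *Aldh1a2* were *Limk1* (distance 0.42), *Osr1* (0.44) and *C1ra* (0.47). The nearest, *Limk1*, gave 24.8 and 22.0 in FSP27-deficient WAT, against 259 and 127 in wild-type WAT, and did not pass the test (adjusted p = 0.12). *Osr1*, a transcription factor gene of mesenchyme, gave 70.3 and 39.1 in FSP27-deficient WAT, against 322 and 246 in wild-type WAT (adjusted p = 0.022), and *C1ra*, a complement component, gave 354 and 173 in FSP27-deficient WAT, against 1159 and 802 in wild-type WAT (adjusted p = 0.0026).

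Around these genes, 68 others of retinoid transport, storage, oxidation, signalling and response were listed. Of them 60 had a probe set and 36 were tested, and 9 were higher and 2 lower in FSP27-deficient WAT, with a median log2 fold change of 0.10. Over all genes tested, 5.78% were called higher and 6.51% lower, with a median of -0.08. Among the genes that make or split esters of retinol, 4 of 6 tested were higher and 0 lower. They are *Dgat1* (7155 and 6690 in FSP27-deficient WAT, against 2783 and 3576 in wild-type WAT, log2 fold change 1.13, limma adjusted p = 0.0018), *Pnpla2*, *Ces1d* and *Ces1f*, genes better known for the synthesis and hydrolysis of triacylglycerol. The log2 fold changes were 0.73 for *Pnpla2* (adjusted p = 0.0092), 0.76 for *Ces1d* (adjusted p = 0.035, with 0.08 and 0.36 by its other probe sets) and 1.25 for *Ces1f* (adjusted p = 0.0093), and the *Ces1* genes are paralogs whose probe sets can share transcripts. Leaving out wild-type replicate 1 gave an adjusted p of 0.37 for *Ces1d* and 0.10 for *Ces1f*, leaving out FSP27-deficient replicate 2 gave 0.11 for *Ces1d*, and leaving out wild-type replicate 2 gave 0.14 for *Pnpla2*. The *Ces1d* call was also lost with quantile normalization (adjusted p = 0.076), with median centring (0.053), with averaged probe sets (0.13) and with no filter on signal (0.13), and the *Pnpla2* call with averaged probe sets (0.066) and without the filter (0.073). *Lipe* and *Lpl*, which encode hormone-sensitive lipase and lipoprotein lipase, had log2 fold changes of 0.22 and 0.24 that did not pass the test.

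The carriers of retinol and their receptors went both ways, with 1 of 4 tested higher and 2 lower. *Rbp4*, which encodes the blood carrier of retinol that fat also secretes, gave 5803 and 7529 in FSP27-deficient WAT, against 12457 and 12737 in wild-type WAT. Its mean was 1.89-fold lower (log2 fold change -0.93 ± 0.17, SE, limma adjusted p = 0.0041). With an array left out the log2 fold change of *Rbp4* was -1.12 to -0.74, and its sign could not reverse because the arrays did not overlap. *Rbp7*, which encodes a cellular retinol-binding protein, gave 1393 and 2195 in FSP27-deficient WAT, against 773 and 1143 in wild-type WAT (log2 fold change 0.88 with an adjusted p = 0.043, which became 0.35 without wild-type replicate 1 and 0.18 without FSP27-deficient replicate 2). *Lrp2*, which encodes the endocytic receptor megalin, gave 88.6 and 207 in FSP27-deficient WAT, against 425 and 337 in wild-type WAT (log2 fold change -1.37 with an adjusted p = 0.040, and -0.42 by its other probe set). Leaving out single arrays gave adjusted p-values of 0.11 without FSP27-deficient replicate 1, 0.32 without wild-type replicate 1 and 0.14 without wild-type replicate 2. The *Lrp2* call was also lost with quantile normalization (adjusted p = 0.077), with averaged probe sets (0.13) and with no filter on signal (0.13), and the *Rbp7* call with averaged probe sets (0.068) and without the filter (0.088).

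In the list of enzymes that interconvert retinol and retinaldehyde, to which the carotenoid-cleaving oxygenases *Bco1* and *Bco2* were added, 11 genes were tested and 2 were higher and 0 lower. *Bco2* was among those tested and not called. *Dhrs4*, a retinol dehydrogenase and reductase of peroxisomes, gave 1989 and 2343 in FSP27-deficient WAT, against 1039 and 1179 in wild-type WAT (log2 fold change 0.95, limma adjusted p = 0.0076), and the second *Dhrs4* probe set also gave 0.95. Its adjusted p was 0.087 without wild-type replicate 1. *Adh1*, an alcohol dehydrogenase that oxidises retinol, had a log2 fold change of 0.90 (adjusted p = 0.015, and 0.23 without wild-type replicate 1 and 0.053 with quantile normalization). *Rdh10*, the retinol dehydrogenase of the embryo, gave 281 and 315 in FSP27-deficient WAT, against 415 and 384 in wild-type WAT, and did not pass the test (adjusted p = 0.37).

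Of the nuclear receptors 4 were tested, and *Rxrg* was higher. It gave 369 and 308 in FSP27-deficient WAT, against 63.9 and 129 in wild-type WAT (log2 fold change 1.71 ± 0.42, SE, limma adjusted p = 0.020, which became 0.061 without FSP27-deficient replicate 1 and 0.12 without wild-type replicate 1). The value of wild-type replicate 1 lay below the lower quartile of its array, so that the size of the rise is uncertain. The mean signal of *Rxrg* was 338 in FSP27-deficient WAT and 96.5 in wild-type WAT. The gene therefore passed the filter on low signals through its FSP27-deficient arrays, and without that filter its adjusted p was 0.074. *Rxra* did not pass the test (1209 and 1420 in FSP27-deficient WAT, against 1393 and 1430 in wild-type WAT, adjusted p = 0.79), and *Rara* (37.9 and 74.2 in FSP27-deficient WAT, against 143 and 92.7 in wild-type WAT) and *Rarb* (82.0 and 76.0 in FSP27-deficient WAT, against 97.3 and 41.5 in wild-type WAT) lay under the filter. *Fabp5*, which can carry retinoic acid to PPARδ, had a log2 fold change of 0.74 (limma adjusted p = 0.011, which became 0.075 with wild-type replicate 1 left out, 0.11 with wild-type replicate 2 left out and 0.063 with no filter) and 1.22 by its dimmer probe set. Of 13 genes with a probe set that retinoic acid is known to induce in various cells, 7 were tested. None of the 7 passed the limma test, with log2 fold changes between -0.31 and 0.54. *Ucp1*, under the filter, gave 157 and 31.3 in FSP27-deficient WAT, against 18.9 and 12.9 in wild-type WAT. Of its 4 array signals, 3 lay below the lower quartile of the array. The paper reports *Ucp1* higher in this tissue by real-time PCR, and describes its level there as high by microarray too. The others under the filter went either way, so that a response of the targets was not settled here. Of the 7 genes tested, 1 gene, *Pck1*, which encodes a carboxykinase of glyceroneogenesis, was under 0.05 before adjustment in limma (adjusted p = 0.17). *Cyp26a1*, a retinoic acid hydroxylase and target gene, gave 9.71 and 47.7 in FSP27-deficient WAT, against 6.33 and 16.3 in wild-type WAT, below the lower quartile of every array.

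**Figure D3:**
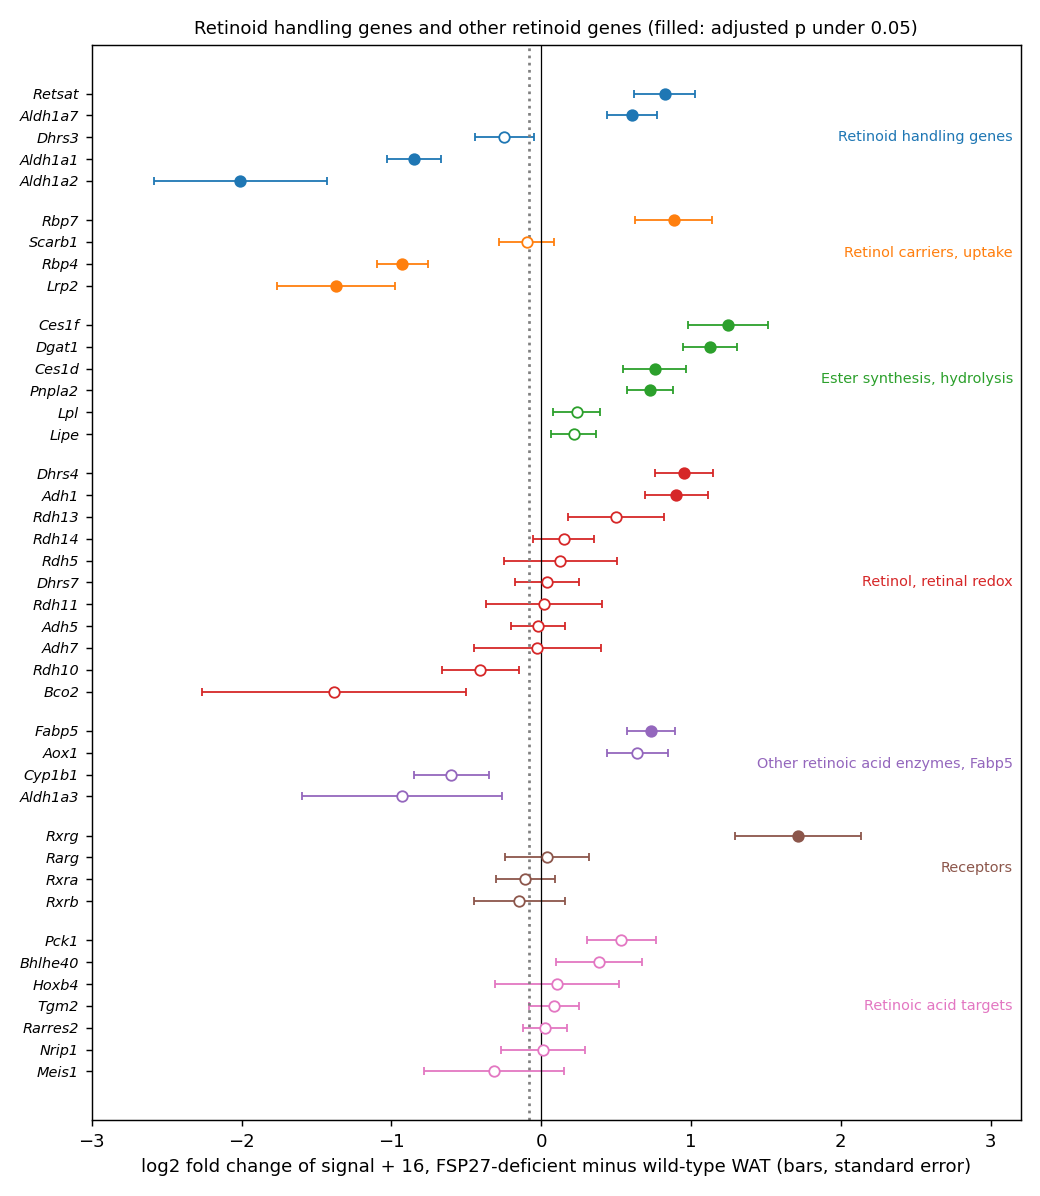
Difference in log2(signal + 16) between FSP27-deficient and wild-type WAT (positive, higher in FSP27-deficient WAT) of the 5 retinoid handling genes and 36 other retinoid genes tested, by role, with bars for the standard error (filled symbols for genes called at 0.05, open symbols for the rest) and the median over all genes, -0.08, dotted. *Retsat* and *Aldh1a7* lie right of 0 and *Aldh1a1* and *Aldh1a2* left of it, and all 7 points of the retinoic acid targets are open.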

How the data were processed

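The values the authors deposited for 4 Affymetrix mouse arrays are linear intensities from GCOS. Neither the GCOS version nor a scaling target is stated in the labels or methods. The platform's annotation gives 1 gene symbol to 20393 probe sets and several to 691, which were left out, while 1606 are unnamed here. Other retinoid and marker genes were matched by symbol, older symbol or gene ID. Each of the 12394 genes was represented by its brightest probe set, and those with a mean of at least 100 were tested on log2(signal + 16), which understates changes of dim genes, in R 4.3.3 with limma 3.58.1 (eBayes with a trend). Residual degrees of freedom were 2, or 12.1 including the prior. The steps were tested on simulated data. Precision is limited by the number of arrays, which repeat 1 pool per genotype.

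The genes, lists and tests were chosen with earlier results of these data known. Named genes are the members, the other retinoid genes past the threshold or fixed by name, and the nearest patterns. Alternatives were other pseudocounts, filters, normalizations and probe set rules, no trend, the methods' t-test, the fold criterion of the methods, the replicate number as a block and leaving out each array. Where leaving out an array left a genotype with 1, its spread was taken from the remaining pair. Promoter sequences are from RefSeq.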

Additional observations from a re-analysis of the deposited data

How the results depend on the processing

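Among the genes recomputed under every alternative, no log2 fold change reversed. Several alternatives, such as no trend, the t-test and the block, change only the test and leave the log2 fold change as it was. Leaving out an array cannot reverse a gene whose arrays do not overlap, so that the lack of reversals was largely fixed in advance. The calls need a prior spread that follows the signal. Without that trend limma called 1 gene higher and 0 lower (1861 had p under 0.05 unadjusted), and the methods' t-test called 0 genes once adjusted by Benjamini-Hochberg (1309 unadjusted), so that 0 retinoid handling genes and 0 other retinoid genes were called either way. The fold criterion of the methods called 1237 genes higher and 1772 lower, 2 retinoid handling genes in each direction, and 10 other retinoid genes higher and 5 lower. As applied here, it also required the same direction in each same-numbered pair of arrays. Of the retinoid handling genes 1 instead of 2 was called higher with quantile normalization, with centring on the median and with averaged probe sets, and 1 instead of 2 lower without the filter on low signals and with a mean signal of at least 200, which leaves *Aldh1a2* out. Of the other retinoid genes 6 were called higher and 1 lower with the mean of probe sets, 4 and 1 without the filter, and 1 lower with quantile normalization, against 9 and 2. With each array left out in turn, 216 to 503 genes were called higher and 192 to 874 lower, 0 to 2 retinoid handling genes in each direction, and 2 to 9 other retinoid genes higher and 1 to 3 lower. The replicate numbers are shared between genotypes only as numbers. The deviations of same-numbered arrays correlated at 0.065 across genes, and with the replicate number as a block limma called 635 genes higher and 831 lower, 2 retinoid handling genes in each direction, and 11 other retinoid genes higher and 2 lower. The causes of these differences were not tested.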
